A study of Saccharomyces cerevisiae S288C with 32 samples.

Results

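The 10 genes described here encode regulators of ribosome gene transcription in budding yeast. They were listed by name, with no threshold on a measured value: the activators SFP1, IFH1, FHL1, HMO1 and RAP1, the repressors CRF1, TOD6, DOT6 and STB3, and the kinase gene SCH9. All 10 of 10 were found among the 6084 matched gene records, and all 10 passed the filter on low counts in every fit. Each is a single coding exon that overlaps 0 other annotated genes and shares 0 stretches of 31 bases with another coding sequence, so reads could not be split with a near copy.

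A growing yeast cell spends much of its transcription on ribosomes, and nutrient signals through the TORC1 kinase complex and protein kinase A (PKA) set that output. At promoters of ribosomal protein genes, Rap1 binds DNA, Fhl1 and the high-mobility-group protein Hmo1 assemble with it, and the coactivator Ifh1 docks on Fhl1. Crf1, a relative of Ifh1, can take its place as a corepressor. Ribosome biogenesis genes, which encode the factors that process and assemble ribosomes, are held down by the related Myb-type repressors Dot6 and Tod6 at the PAC element and by Stb3 at the RRPE element. All 3 of these repressors recruit the Rpd3L histone deacetylase complex and are phosphorylated by Sch9, a kinase under TORC1, while the zinc-finger activator Sfp1 acts on both gene classes.

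The study treated S. cerevisiae S288C, grown at room temperature in YPD to an OD600 of 0.4, for 45 minutes with 2 mg/mL AZC (L-azetidine-2-carboxylic acid), a proline analog that is built into proteins and misfolds them, or with sterile water as vehicle. Wild type was compared with a mutant labelled zuo1, after the gene of a ribosome-bound J-domain co-chaperone, and with one labelled not5, after the gene of a Ccr4-Not subunit. The 32 libraries formed 8 groups of 4. Wild type with either treatment was run beside zuo1 with either treatment on flowcell 1, and again beside both treatments of not5 on flowcell 2. The labels give no allele, marker or clone number for either mutant, and although titles number biological replicates, none mentions separate cultures, so p-values measure only the spread between these libraries.

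A library of flowcell 1 held 22152108 to 31485394 counts, and one of flowcell 2 held 58229383 to 97010130. ZUO1 had 25775 to 33003 counts in wild type with vehicle on flowcell 1 and 0 in all zuo1 libraries but 1, which had 3. NOT5 had 0 counts in all 8 not5 libraries. LEU2 counts, 1378 to 2311 in not5 and 0 in all other libraries, go with not5 throughout. Ribosomal RNA records made up 0.626 to 3.95% of counts in wild type of flowcell 2 and 3.95 to 14.9% in not5. RNA was selected by poly(A), so tail length and mRNA level cannot be told apart, and neither can fewer mRNA molecules and a larger total of other mRNA.

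Levels are given as CPM, each gene's share of its library's counts on 1 TMM scale over the 32 libraries, always in the order of replicate numbers 1 to 4. Fold changes are log2 values with their standard errors from edgeR's quasi-likelihood test within a flowcell, and a gene is called where the Benjamini-Hochberg adjusted p over all genes is below 0.05. With n = 4 libraries in each of the 8 groups, AZC in wild type called 3 members higher and 4 lower on flowcell 1, where 33.3% of all genes were called higher and 31.3% lower. On flowcell 2 it called 2 members higher and 4 lower, beside 30.2% and 35.2% of all genes. These shares are near those of all genes, so the counts alone do not set the members apart, and the account below rests on which members moved and by how much. In zuo1, AZC called 0 members by edgeR, of which 2 had an unadjusted p below 0.05, beside 2.25% of all genes higher and 0.519% lower (130 and 30 genes, or 98 and 42 when scaled to library totals). In not5, AZC called 0 members by edgeR, with 0 at an unadjusted p below 0.05, beside 0% of all genes higher and 0% lower; DESeq2 called 1 gene of all in not5, and 62 genes of all had an unadjusted edgeR p below 0.05. With equal numbers paired, AZC in not5 called 76 genes of all and still 0 members.

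**Figure D1:**
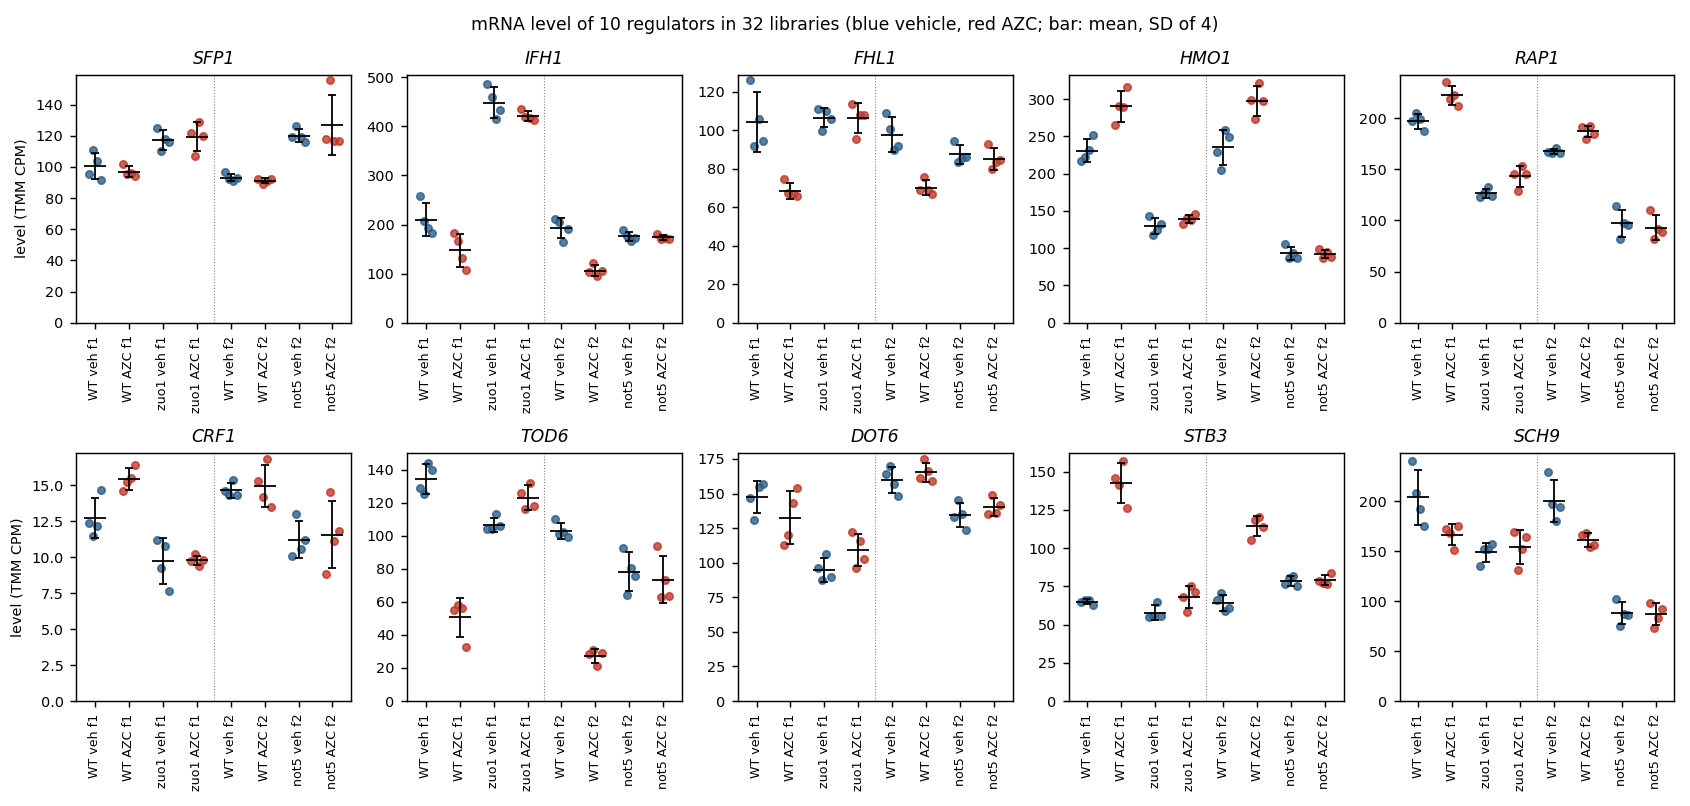
Level of each of the 10 regulators (y axis, CPM on a linear scale from 0) in the 8 groups (x axis, f1 and f2 for the flowcells, separated by the dotted line), with 1 point per library, blue for vehicle and red for AZC, and a bar for the mean with its SD. TOD6 with AZC in wild type sits at 21.2 to 58.2 CPM, below all vehicle libraries of wild type, while the zuo1 and not5 libraries with AZC stay at 63.0 to 132 CPM.

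Among the activators, IFH1 and FHL1 both fell with AZC in wild type on both flowcells. IFH1 (YLR223C, chromosome XII, 582233 to 585490, minus strand, R64) encodes the coactivator whose binding at ribosomal protein promoters follows growth. On flowcell 1 it read 258, 207, 194 and 182 CPM with vehicle and 182, 167, 132 and 108 CPM with AZC. On flowcell 2 it read 211, 205, 165 and 191 CPM with vehicle and 104, 121, 95.2 and 105 CPM with AZC. The groups overlapped at 182 CPM on flowcell 1 and stood apart on flowcell 2. The log2 change was -0.53 ± 0.13 (SE, edgeR adjusted p = 0.00216) on flowcell 1 and -0.90 ± 0.08 (edgeR adjusted p = 1.22e-07) on flowcell 2.

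IFH1 stood out in zuo1 for its level. It read 486, 460, 415 and 433 CPM with vehicle and 435, 419, 416 and 413 CPM with AZC, so every zuo1 library exceeded every other library of the 32. Against wild type of flowcell 1 the log2 difference was 1.098 ± 0.13 (edgeR adjusted p = 3.40e-06) with vehicle and 1.53 ± 0.14 (edgeR adjusted p = 2.19e-08) with AZC. The response to AZC in zuo1 was -0.10 ± 0.13, and its difference from the wild-type response, 0.44 ± 0.19, missed the threshold (edgeR adjusted p = 0.0653). That difference was called by DESeq2 (0.47, adjusted p = 0.0294), with DESeq2 size factors (edgeR adjusted p = 0.0435), with all 32 libraries in 1 fit (edgeR adjusted p = 0.0279), and with numbers as a block or paired (edgeR adjusted p = 0.00684 and 0.00135). It was also called without wild-type vehicle 4, wild-type AZC 1 or 2, zuo1 vehicle 1 or 2, or zuo1 AZC 2. The paired value has a limit, as equal numbers did not pair vehicle and AZC libraries in zuo1. In not5, IFH1 read 189, 176, 167 and 173 CPM with vehicle and 181, 171, 172 and 171 CPM with AZC. There the response was -0.02 ± 0.08 and differed from that of wild type by 0.88 ± 0.11 (edgeR adjusted p = 1.52e-05).

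FHL1 (YPR104C, chromosome XVI, 733623 to 736433, minus strand) encodes the forkhead protein that holds Ifh1 at the promoter. On flowcell 1 it read 126, 91.7, 106 and 94.6 CPM with vehicle and 74.9, 67.3, 66.9 and 65.8 CPM with AZC, and on flowcell 2 it read 109, 101, 89.7 and 91.8 CPM with vehicle and 69.2, 75.9, 68.9 and 67.0 CPM with AZC. All 8 wild-type AZC libraries lay below all 8 wild-type vehicle libraries. The log2 changes were -0.62 ± 0.09 (edgeR adjusted p = 6.97e-06) and -0.52 ± 0.07 (edgeR adjusted p = 7.83e-06). In zuo1 FHL1 read 99.9 to 111 CPM with vehicle and 95.5 to 114 CPM with AZC, and in not5 it read 83.8 to 94.6 and 79.7 to 92.8 CPM. The response differed from wild type by 0.61 ± 0.13 in zuo1 (edgeR adjusted p = 5.25e-04) and by 0.48 ± 0.10 in not5 (edgeR adjusted p = 7.74e-04).

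HMO1 (YDR174W, chromosome IV, 812110 to 812850, plus strand) encodes a high-mobility-group protein of ribosomal DNA and ribosomal protein promoters. It was the most abundant member per coding length in all 8 groups and moved opposite to IFH1 and FHL1. Its promoter carried, at -187 to -175 from the start codon, the single match of the 10 members to the heat shock element searched as GAANNTTCNNGAA. Of 5960 promoters of the same 300-base window, 47 (0.789%) held that element. The RefSeq R64 sequence at chrIV:811860-812159, plus strand, is printed 5′ to 3′ with the element in capitals, because HMO1 is the activator called higher on both flowcells.
HMO1 promoter: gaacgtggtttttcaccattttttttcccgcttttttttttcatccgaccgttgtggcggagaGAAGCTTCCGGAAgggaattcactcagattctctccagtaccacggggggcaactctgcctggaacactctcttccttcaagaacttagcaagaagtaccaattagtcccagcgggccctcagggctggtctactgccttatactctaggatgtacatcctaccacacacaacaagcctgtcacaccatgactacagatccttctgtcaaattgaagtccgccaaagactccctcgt

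HMO1 rose with AZC in wild type. On flowcell 1 it read 217, 222, 232 and 252 CPM with vehicle and 265, 291, 289 and 316 CPM with AZC, and on flowcell 2 it read 229, 205, 258 and 249 CPM with vehicle and 299, 273, 321 and 297 CPM with AZC. The groups did not overlap on either flowcell. The log2 changes were 0.31 ± 0.07 (edgeR adjusted p = 8.60e-04) and 0.30 ± 0.08 (edgeR adjusted p = 0.00474). HMO1 with vehicle read 143, 118, 125 and 132 CPM in zuo1 and 106, 87.1, 93.1 and 86.6 CPM in not5. Both mutants lay below their wild type with no overlap, by -0.83 ± 0.07 (edgeR adjusted p = 7.91e-08) in zuo1 and by -1.37 ± 0.08 (edgeR adjusted p = 4.00e-10) in not5. The latter was the largest difference of a member between not5 and wild type with vehicle, and it was -1.32 with ribosomal RNA records left out and -0.83 when scaled to library totals.

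With AZC, HMO1 read 132, 140, 138 and 146 CPM in zuo1 and 98.8, 86.7, 94.5 and 88.0 CPM in not5, little apart from the vehicle values. The responses were 0.10 ± 0.07 in zuo1 and -0.02 ± 0.08 in not5, neither called. The difference from the wild-type response was -0.22 ± 0.10 in zuo1 (edgeR adjusted p = 0.0872) and -0.32 ± 0.12 in not5 (edgeR adjusted p = 0.0358). The zuo1 difference was called on library totals (-0.27, edgeR adjusted p = 0.0360) and with numbers paired (-0.21, edgeR adjusted p = 0.0498). It was also called without wild-type vehicle 4 or wild-type AZC 1 (edgeR adjusted p = 0.0449 and 0.0437). Equal numbers did not pair vehicle and AZC libraries in zuo1, which limits the paired value. The not5 call was lost without any 1 of 9 of the 16 libraries, with edgeR adjusted p from 0.0516 to 0.0771: vehicle wild type 1 and 2, AZC wild type 1, 3 and 4, vehicle not5 1 and 3, and AZC not5 2 and 4. It was lost on library totals as well (-0.31, edgeR adjusted p = 0.0636).

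RAP1 (YNL216W, chromosome XIV, 241689 to 244172, plus strand) encodes the DNA-binding protein at the base of these promoters and at telomeres. It read 197, 205, 199 and 187 CPM with vehicle and 235, 219, 223 and 212 CPM with AZC in wild type of flowcell 1. On flowcell 2 it read 167, 166, 171 and 166 CPM with vehicle and 191, 180, 192 and 185 CPM with AZC. The groups did not overlap, but the log2 changes were small, 0.15 ± 0.06 (edgeR adjusted p = 0.0315) and 0.12 ± 0.09 (edgeR adjusted p = 0.264). With vehicle and AZC libraries of equal number paired, the flowcell 2 value was called at 0.12 (edgeR adjusted p = 0.00756). With only the groups compared in the fit, it was called at 0.15 (edgeR adjusted p = 0.0144). The flowcell 1 call was lost without vehicle number 1, 3 or 4 or AZC number 1 or 3, with edgeR adjusted p from 0.0507 to 0.0922. It was also lost by DESeq2 (adjusted p = 0.0530), with DESeq2 size factors (edgeR adjusted p = 0.0717), on library totals (edgeR adjusted p = 0.0532) and with only the groups compared in the fit (edgeR adjusted p = 0.0760).

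RAP1 was lower in both mutants whatever the treatment. With vehicle it read 123, 127, 133 and 124 CPM in zuo1 and 114, 81.9, 97.7 and 95.4 CPM in not5, and with AZC 145, 129, 153 and 145 CPM in zuo1 and 110, 81.9, 91.4 and 89.2 CPM in not5. Against wild type with vehicle the differences were -0.63 ± 0.06 (edgeR adjusted p = 2.15e-07) in zuo1 and -0.82 ± 0.09 (edgeR adjusted p = 5.40e-07) in not5. AZC changed RAP1 by 0.17 in zuo1 and by -0.06 in not5, neither called. The zuo1 change was called without zuo1 AZC number 2 (0.25, edgeR adjusted p = 0.0396). The zuo1 response differed from that of wild type by -0.05 to 0.05 over the settings, never called. Across the 32 libraries with flowcell means removed, RAP1 and HMO1 had a Pearson r of 0.968, the highest of any pair of members. The points share the groups, so the value describes these libraries.

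SFP1 (YLR403W, chromosome XII, 925568 to 927619, plus strand), whose zinc-finger product is itself controlled by TORC1 mainly through its place in the cell, hardly moved with AZC. In wild type it read 91.7 to 111 CPM with vehicle and 94.1 to 102 CPM with AZC on flowcell 1, and 90.9 to 96.7 and 88.9 to 92.6 CPM on flowcell 2. The 4 responses ranged from -0.07 to 0.08 with SE of 0.07 to 0.08, none called. With vehicle it read 125, 110, 118 and 116 CPM in zuo1 and 119, 126, 119 and 116 CPM in not5. SFP1 was higher in both mutants, by 0.23 ± 0.07 in zuo1 (edgeR adjusted p = 0.0103) and 0.33 ± 0.08 in not5 (edgeR adjusted p = 7.41e-04) with vehicle, or 0.47 and 0.86 on library totals. The zuo1 call was lost without zuo1 vehicle number 1 (edgeR adjusted p = 0.0834) or number 3 (edgeR adjusted p = 0.0537).

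The repressors divided. TOD6 and DOT6 are paralogs whose proteins bind the same PAC element, GATGAG, yet only TOD6 among them was called with AZC in wild type. The TOD6 window itself held 3 copies of GATGAG, at -250 to -245, -235 to -230 and -214 to -209 from the start codon. Of 5960 promoters searched on both strands, 20.2% held at least 1 copy and 32 (0.537%) held at least 3, as did 9 of the 60 ribosome biogenesis genes (15.0%). The DOT6 window held 1 copy, read as CTCATC on the gene's own strand, at -55 to -50 from its start. Both RefSeq R64 windows are printed 5′ to 3′ on the gene's strand with these copies in capitals, because the pair differ in response. They cover chrII:117339-117638, plus strand, and chrV:335139-335438, minus strand, and a match describes letters, not a bound site. Of the other members, FHL1 held 1 match to the Rap1 letters ACCCNNNCA, found in 7.30% of promoters, and SCH9 held 1 match to RRPE and 1 to the stress response letters AGGGG, found in 9.09% and 21.6%. STB3, SFP1, IFH1, CRF1 and RAP1 held no match to these letters in the window.
TOD6 promoter: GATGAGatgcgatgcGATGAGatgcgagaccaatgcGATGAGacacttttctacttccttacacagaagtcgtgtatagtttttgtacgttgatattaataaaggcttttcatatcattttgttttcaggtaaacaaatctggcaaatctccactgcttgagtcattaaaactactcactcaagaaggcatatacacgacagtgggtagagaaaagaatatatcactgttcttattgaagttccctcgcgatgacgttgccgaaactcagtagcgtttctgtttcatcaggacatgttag
DOT6 promoter: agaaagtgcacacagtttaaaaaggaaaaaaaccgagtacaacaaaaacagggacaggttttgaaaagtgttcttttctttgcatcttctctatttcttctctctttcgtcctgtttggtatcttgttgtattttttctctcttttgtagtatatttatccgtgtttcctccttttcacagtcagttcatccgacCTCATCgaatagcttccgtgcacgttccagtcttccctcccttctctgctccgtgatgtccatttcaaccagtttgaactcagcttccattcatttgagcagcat

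TOD6 (YBL054W, chromosome II, 117589 to 119166, plus strand) had the largest response of any member to AZC in wild type. On flowcell 1 it read 129, 125, 144 and 140 CPM with vehicle and 55.3, 58.2, 56.0 and 32.8 CPM with AZC. On flowcell 2 it read 110, 101, 102 and 99.1 CPM with vehicle and 28.3, 30.7, 21.2 and 28.9 CPM with AZC. All AZC libraries lay far below all vehicle libraries, and number 4 of flowcell 1 lay below its 3 fellows. The log2 changes were -1.43 ± 0.13 (edgeR adjusted p = 2.11e-08) and -1.96 ± 0.14 (edgeR adjusted p = 1.38e-08), folds of 0.372 and 0.257.

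The fall of TOD6 was not seen in either mutant. It read 104, 104, 113 and 106 CPM with vehicle and 126, 116, 132 and 118 CPM with AZC in zuo1. In not5 it read 92.4, 64.2, 80.6 and 75.7 CPM with vehicle and 93.5, 63.0, 73.3 and 63.4 CPM with AZC. The zuo1 AZC libraries all lay above the zuo1 vehicle libraries, with a change of 0.20 ± 0.12 that was not called, and the not5 groups overlapped almost wholly, with a change of -0.09 ± 0.13. The response differed from wild type by 1.63 ± 0.18 in zuo1 (edgeR adjusted p = 6.19e-07) and 1.87 ± 0.19 in not5 (edgeR adjusted p = 2.20e-06). These were the largest differences in response of any member in both mutants, among 23.4% of all genes called higher and 26.7% lower for zuo1, and 26.5% and 22.7% for not5.

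With vehicle, TOD6 was lower than wild type by -0.33 ± 0.12 in zuo1 (edgeR adjusted p = 0.0302) and by -0.43 ± 0.13 in not5 (edgeR adjusted p = 0.00807). Scaled to library totals, the zuo1 value was -0.08 and not called (edgeR adjusted p = 0.608), and the not5 value turned to 0.10. The zuo1 call was lost without wild type number 3 or 4 or zuo1 number 1 or 4, with edgeR adjusted p from 0.0539 to 0.0786. With AZC, TOD6 was higher than wild type by 1.30 ± 0.13 in zuo1 (edgeR adjusted p = 6.49e-08) and by 1.44 ± 0.14 in not5 (edgeR adjusted p = 8.58e-08). Each of these contrasts shares its libraries with the responses above and adds no independent measurement.

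DOT6 (YER088C, chromosome V, 333176 to 335188, minus strand) read 147, 131, 155 and 157 CPM with vehicle and 113, 120, 143 and 154 CPM with AZC in wild type of flowcell 1. On flowcell 2 it read 164, 170, 157 and 148 CPM with vehicle and 161, 175, 166 and 159 CPM with AZC. Its groups overlapped on both flowcells, and the log2 changes were -0.17 ± 0.10 (edgeR adjusted p = 0.143) and 0.01 ± 0.06 (edgeR adjusted p = 0.915). Pairing equal numbers called the flowcell 1 value, -0.18 (edgeR adjusted p = 0.0236), as did leaving out AZC number 4, at -0.25 (edgeR adjusted p = 0.0377). DOT6 was lower with vehicle in zuo1, at 96.2, 87.2, 106 and 89.5 CPM, by -0.63 ± 0.10 (edgeR adjusted p = 4.57e-05). In not5 with vehicle it read 133, 145, 135 and 124 CPM, a difference of -0.29 ± 0.06 (edgeR adjusted p = 3.29e-04) that turned to 0.24 when scaled to library totals. In zuo1 DOT6 read 122, 96.1, 116 and 103 CPM with AZC and overlapped the vehicle libraries. In zuo1 the response of DOT6 to AZC was 0.21 ± 0.10, not called, and it exceeded that of wild type by 0.38 ± 0.14 (edgeR adjusted p = 0.0361). That difference lost its call without any 1 of 7 of the 16 libraries, with edgeR adjusted p from 0.0536 to 0.0843: wild-type vehicle 1, 3 and 4, wild-type AZC 1 and 2, zuo1 vehicle 4 and zuo1 AZC 1.

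The ratio of the 2 paralogs within a library does not depend on how libraries are scaled. Per coding base, TOD6 over DOT6 was 1.16 ± 0.0455 (SD, n = 4) with vehicle and 0.503 ± 0.165 with AZC in wild type of flowcell 1, and 0.823 ± 0.0438 and 0.211 ± 0.0319 on flowcell 2. In zuo1 it was 1.44 ± 0.0852 and 1.44 ± 0.0952, and in not5 it was 0.747 ± 0.132 and 0.670 ± 0.156. The ratio of every wild-type AZC library was below that of every vehicle library of its flowcell, and in the mutants the treatments overlapped.

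STB3 (YDR169C, chromosome IV, 792348 to 793889, minus strand), the gene of the repressor that binds RRPE, rose with AZC in wild type. On flowcell 1 it read 64.8, 66.1, 66.0 and 63.0 CPM with vehicle and 146, 141, 157 and 126 CPM with AZC, and on flowcell 2 it read 65.8, 70.3, 58.7 and 60.5 CPM with vehicle and 105, 118, 120 and 114 CPM with AZC. On the TMM scale the 8 wild-type AZC libraries were the 8 highest of the 32. That ranking depends on the scale. On library totals, STB3 in not5 differed from wild type with AZC by 0.0089 (edgeR adjusted p = 0.930). The log2 changes with AZC in wild type were 1.11 ± 0.08 (edgeR adjusted p = 1.22e-09) and 0.80 ± 0.06 (edgeR adjusted p = 3.81e-08), a 2.16-fold and a 1.74-fold rise. Of the 4 repressor genes, STB3 alone was called higher on both flowcells.

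STB3 stayed near its vehicle level in the mutants. In zuo1 it read 55.1, 55.7, 65.0 and 55.3 CPM with vehicle and 68.0, 58.4, 75.0 and 71.5 CPM with AZC, and in not5 it read 76.5, 80.4, 81.9 and 75.4 CPM with vehicle and 78.2, 77.4, 76.3 and 84.0 CPM with AZC. The treatments overlapped in both mutants. The change in zuo1, 0.24 ± 0.08, had an unadjusted p of 0.00983 and an edgeR adjusted p of 0.190, and was called without zuo1 vehicle number 3 (0.33, edgeR adjusted p = 0.0489) or zuo1 AZC number 2 (0.33, edgeR adjusted p = 0.0300). The change in not5 was 0.01 ± 0.06. The response fell short of that of wild type by -0.88 ± 0.12 in zuo1 (edgeR adjusted p = 5.51e-06) and by -0.78 ± 0.09 in not5 (edgeR adjusted p = 5.36e-06). With vehicle, STB3 in not5 exceeded wild type by 0.26 ± 0.06 (edgeR adjusted p = 0.00103), or by 0.79 on library totals, and in zuo1 the difference was -0.16 ± 0.08 (edgeR adjusted p = 0.0943), called with equal numbers paired (-0.17, edgeR adjusted p = 0.0431), called without zuo1 vehicle number 3 (-0.25, edgeR adjusted p = 0.0203), and turned to 0.08 on library totals.

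CRF1 (YDR223W, chromosome IV, 912099 to 913502, plus strand), the corepressor gene related to IFH1, was the least abundant member in all 8 groups. It read 12.4, 11.5, 12.2 and 14.7 CPM with vehicle and 14.6, 15.2, 15.5 and 16.4 CPM with AZC in wild type of flowcell 1, and 14.3 to 15.4 and 13.5 to 16.8 CPM on flowcell 2. The groups overlapped on both. The log2 changes were 0.26 ± 0.12 (edgeR adjusted p = 0.0585) and -0.01 ± 0.12 (edgeR adjusted p = 0.929). The first was called with equal numbers paired (0.26, edgeR adjusted p = 0.0468), by limma (0.27, adjusted p = 0.0423), with all 32 libraries in 1 fit (0.28, edgeR adjusted p = 0.0446) and without wild-type vehicle number 4 (0.33, edgeR adjusted p = 0.0242). In zuo1 CRF1 read 7.68 to 11.2 CPM with vehicle, a difference of -0.37 ± 0.12 (edgeR adjusted p = 0.0109) that was -0.13 and not called on library totals (edgeR adjusted p = 0.377). In not5 it read 10.14 to 12.98 CPM with vehicle, a difference of -0.42 ± 0.12 (edgeR adjusted p = 0.00454) that turned to 0.10 when scaled to library totals.

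IFH1 over CRF1, the coactivator over the corepressor, was 7.22 ± 1.53 per coding base with vehicle and 4.17 ± 1.13 with AZC in wild type of flowcell 1, and 5.68 ± 0.756 and 3.10 ± 0.533 on flowcell 2. In zuo1 it was 20.2 ± 3.36 and 18.5 ± 0.769, above every wild-type library, and in not5 6.85 ± 0.897 and 6.70 ± 1.58. The wild-type groups overlapped on flowcell 1, where the lowest vehicle value was 5.34 and the highest AZC value 5.39, and stood apart on flowcell 2. STB3 over TOD6 shifted from 0.497 ± 0.0383 to 2.99 ± 0.646 on flowcell 1 and from 0.635 ± 0.0527 to 4.39 ± 0.933 on flowcell 2. In zuo1 that ratio was 0.554 ± 0.0244 and 0.567 ± 0.0448, and in not5 1.05 ± 0.178 and 1.13 ± 0.222. Of this pair, TOD6 was thus the more abundant mRNA with vehicle in wild type, and STB3 with AZC.

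**Figure D2:**
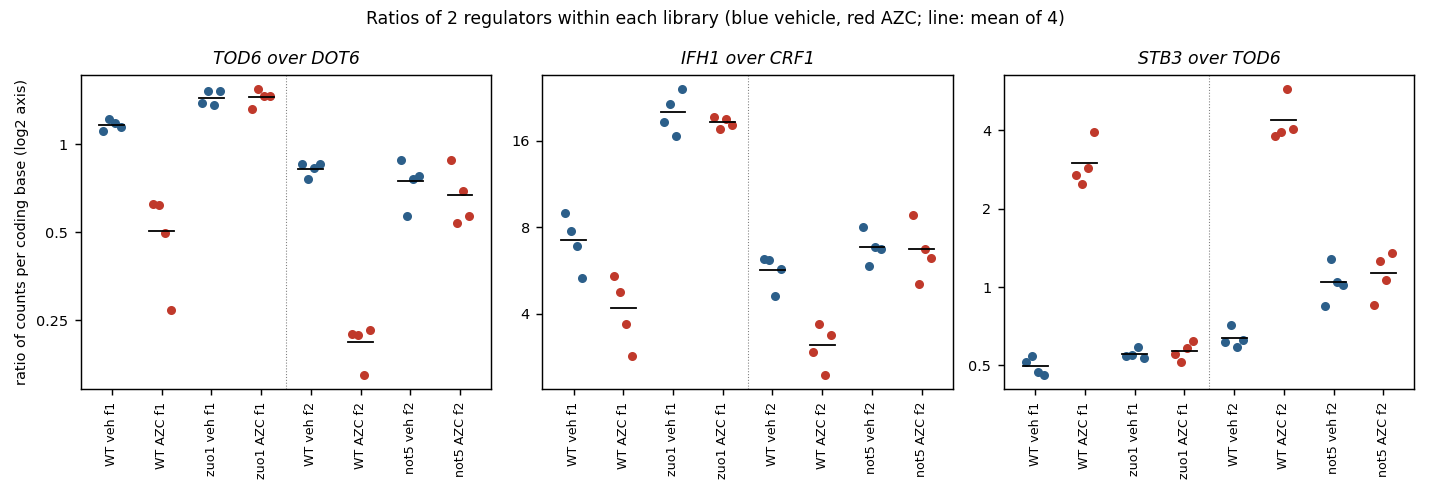
Ratio of counts per coding base of 2 regulators within each library (y axis, log2 scale) by group (x axis), with 1 point per library, blue for vehicle, red for AZC and a line at the mean of 4. STB3 over TOD6 rises from 0.460 to 0.711 with vehicle to 2.48 to 5.78 with AZC in wild type, while the zuo1 libraries lie at 0.514 to 0.620 and the not5 libraries at 0.847 to 1.36.

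SCH9 (YHR205W, chromosome VIII, 509363 to 511837, plus strand) encodes the TORC1-dependent kinase that acts on Stb3, Dot6 and Tod6. In wild type it read 240, 208, 192 and 175 CPM with vehicle and 172, 168, 151 and 175 CPM with AZC on flowcell 1, and 229, 197, 180 and 194 CPM with vehicle and 166, 168, 154 and 156 CPM with AZC on flowcell 2. The groups did not overlap, though on flowcell 1 the lowest vehicle and the highest AZC library both rounded to 175 CPM. SCH9 fell by 0.31 ± 0.10 (edgeR adjusted p = 0.00945) and 0.35 ± 0.10 (edgeR adjusted p = 0.00642) on the log2 scale. In not5 it read 102, 75.1, 87.2 and 86.4 CPM with vehicle and 98.4, 73.2, 83.2 and 92.4 CPM with AZC. These values lay below every wild-type library on the TMM scale, but on library totals not every one did. The SCH9 difference from wild type with vehicle was -1.22 ± 0.10 (edgeR adjusted p = 1.68e-08) in not5, -0.70 when scaled to library totals, and -0.44 ± 0.10 (edgeR adjusted p = 7.95e-04) in zuo1, where library totals gave -0.20 (edgeR adjusted p = 0.0846).

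In zuo1 SCH9 read 135, 152, 152 and 157 CPM with vehicle and 169, 131, 152 and 164 CPM with AZC. SCH9 did not respond past the threshold in either mutant. The change was 0.04 ± 0.10 in zuo1 and -0.01 ± 0.10 in not5. The difference from the wild-type response was 0.35 ± 0.14 (edgeR adjusted p = 0.0416) in zuo1, and 0.34 ± 0.14 (edgeR adjusted p = 0.0601) in not5, where pairing equal numbers called it (0.34, edgeR adjusted p = 9.35e-04). The same pairing also called the RAP1 difference in not5, -0.17 (edgeR adjusted p = 0.00800). The zuo1 difference of SCH9 lost its call without wild-type vehicle 1 or 2, wild-type AZC 2 or 3 or zuo1 AZC 1, with edgeR adjusted p from 0.0533 to 0.0987. Without wild-type vehicle 1 or zuo1 AZC 1, 3 members rather than 5 differed in response between zuo1 and wild type.

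**Figure D3:**
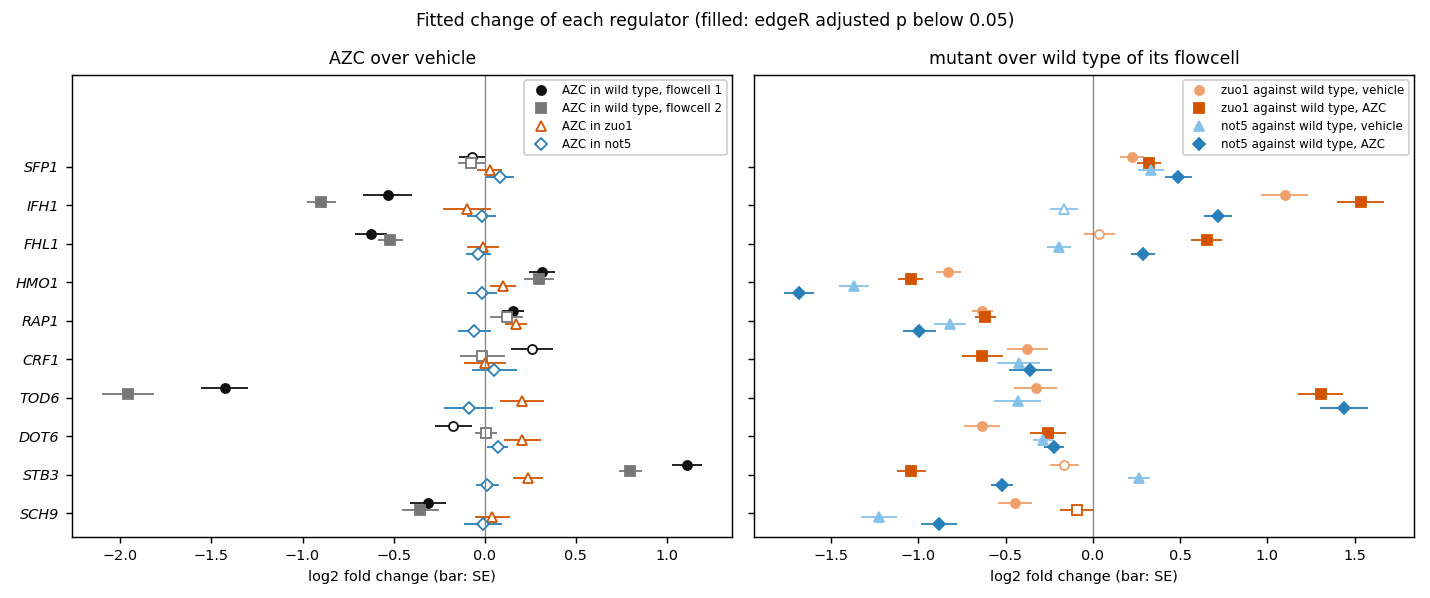
Fitted log2 fold change of each regulator with its SE (x axis) for AZC over vehicle in 4 settings on the left and for mutant over wild type on the right, with filled symbols where the edgeR adjusted p is below 0.05. On the left the wild-type symbols reach from -1.96 for TOD6 to 1.11 for STB3, while the open zuo1 and not5 symbols stay between -0.10 and 0.24; on the right, scaled to library totals, the not5 values of IFH1, FHL1, CRF1, TOD6 and DOT6 with vehicle and of CRF1, DOT6 and STB3 with AZC would change sign, as would the uncalled zuo1 values of STB3 with vehicle and SCH9 with AZC.

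Set against wild type at the same treatment, the mutants differed in most members, as they did in most genes. The counts below therefore do not by themselves set the members apart. With vehicle, zuo1 had 2 members higher and 6 lower, beside 30.1% of all genes higher and 29.1% lower. With vehicle, not5 had 2 higher and 7 lower, beside 41.2% and 40.9%. With AZC, zuo1 had 4 higher and 5 lower, beside 34% and 35.4%, and not5 had 4 higher and 6 lower, beside 40.7% and 38.7%. Scaled to library totals, without TMM factors, the median of all genes moved to 0.53 and 0.55 for not5 and to 0.25 and 0.17 for zuo1, with vehicle and AZC. The called genes then split 3656 higher and 1141 lower in not5 with vehicle instead of 2412 and 2391, and 3777 and 929 with AZC instead of 2379 and 2262. Of the members, library totals called 5 higher and 3 lower in not5 with either treatment. In zuo1 they called 3 higher and 3 lower with vehicle, where FHL1 was called (0.28, edgeR adjusted p = 0.0161) and CRF1, TOD6 and SCH9 were not, and 4 higher and 4 lower with AZC. For zuo1 they split 2892 and 789 instead of 1743 and 1685 with vehicle, and 2575 and 1458 instead of 1964 and 2044 with AZC.

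Members were therefore read relative to the median gene in not5. With vehicle, the lowest were HMO1 at -1.37, SCH9 at -1.22 and RAP1 at -0.82, and these 3 also fell below wild type on library totals, at -0.83, -0.70 and -0.29. IFH1 differed by -0.16 ± 0.08 (edgeR adjusted p = 0.0667) and FHL1 by -0.20 ± 0.07 (edgeR adjusted p = 0.0158), and both turned to called positive values of 0.35 and 0.33 on library totals, below the shift of the median gene. The FHL1 call was also lost without ribosomal RNA records (edgeR adjusted p = 0.0663) and without wild-type vehicle number 1 (edgeR adjusted p = 0.0682), and IFH1 was called without wild-type vehicle number 3 (-0.23, edgeR adjusted p = 0.00738) or not5 vehicle number 1 (-0.20, edgeR adjusted p = 0.0407). An alternative left out wild type number 3 and not5 number 4, the libraries with the most ribosomal RNA of their groups in flowcell 2. In it, not5 with vehicle again had 2 members higher and 7 lower. IFH1 (-0.19, edgeR adjusted p = 0.0454) took the place of FHL1 (-0.19, edgeR adjusted p = 0.0731). With AZC the same alternative left 4 higher and 5 lower, as CRF1 (-0.33, edgeR adjusted p = 0.0695) was no longer called. CRF1 also lost its call with AZC without wild-type AZC number 3 (-0.29, edgeR adjusted p = 0.0509).

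With AZC in both arms, several members stood above wild type. IFH1 in not5 was 0.72 ± 0.08 above wild type (edgeR adjusted p = 4.46e-07), FHL1 0.29 ± 0.07 (edgeR adjusted p = 0.00120) and SFP1 0.49 ± 0.08 (edgeR adjusted p = 1.99e-05). STB3 in not5 was -0.52 ± 0.06 (edgeR adjusted p = 1.23e-06), near 0 at 0.01 on library totals, and CRF1 at -0.36 and DOT6 at -0.22 turned to 0.17 and 0.31. In zuo1 with AZC, FHL1 was 0.65 ± 0.09 above wild type (edgeR adjusted p = 3.94e-06), STB3 lay below it by -1.04 ± 0.08 (edgeR adjusted p = 3.19e-09) and HMO1 by -1.04 ± 0.07 (edgeR adjusted p = 6.21e-10). DOT6 was -0.26 ± 0.10 in zuo1 with AZC (edgeR adjusted p = 0.0324), a call lost without wild-type AZC 3 or 4 or zuo1 AZC 2 or 4, with edgeR adjusted p from 0.0920 to 0.158. These contrasts share wild-type libraries with the AZC responses.

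The wild-type responses were compared between the flowcells, where library totals called 23 genes higher and 30 lower instead of 47 and 29. No member's response differed by edgeR, with 2 of 10 at an unadjusted p below 0.05, beside 0.809% of all genes called higher and 0.499% lower. TOD6 fell further on flowcell 2 by -0.49 ± 0.20 (edgeR adjusted p = 0.188) and STB3 rose less by -0.27 ± 0.11 (edgeR adjusted p = 0.168). Both were called without AZC number 4 of flowcell 1, TOD6 at -0.65 (edgeR adjusted p = 0.00600) and STB3 at -0.33 (edgeR adjusted p = 0.0487). Levels with vehicle cannot be told apart from the flowcell.

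The genes these regulators act on were read from lists drawn up by function, with earlier results of these data known. Of 60 ribosome biogenesis genes, 59 held PAC in the promoter (98.3%, against 20.2% of all promoters). The RRPE letters AAAATTTT were in 49 (81.7%, against 9.09% of all promoters). All 60 fell with AZC in wild type on both flowcells, with median log2 changes of -1.67 and -1.34. DHR2, a helicase gene of rRNA processing, changed by -2.72 ± 0.10, UTP23 by -2.66 ± 0.12 and SSF1 by -2.56 ± 0.10 on flowcell 1. Of 135 tested ribosomal protein genes of 137, 128 fell on flowcell 1 and 134 on flowcell 2, with medians of -0.69 and -0.59, and 0 of either list rose. RPL22B (-2.03 ± 0.21), RPL4B (-1.38 ± 0.16) and RPS7B (-1.22 ± 0.11) fell furthest on flowcell 1, with -1.61, -0.70 and -0.78 on flowcell 2, and each has a near copy whose reads the estimate may share. The median over all genes tested was 0.02 and -0.03, and 31.3% and 35.2% of all genes were called lower.

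Summed over the list, ribosome biogenesis mRNA in wild type of flowcell 1 was 2.59 ± 0.111% with vehicle and 0.879 ± 0.0831% with AZC. On flowcell 2 it was 2.22 ± 0.0943% and 0.988 ± 0.108%. These percentages are of TMM-scaled CPM and are not shares of a library's own counts. In zuo1 the sums were 2.23 ± 0.0881% and 2.17 ± 0.0733%, and in not5 0.869 ± 0.156% and 0.783 ± 0.168%. On this scale the not5 libraries with vehicle overlapped wild type with AZC in ribosome biogenesis mRNA. TOD6 and STB3 in them stood at 64.2 to 92.4 and 75.4 to 81.9 CPM, outside the wild-type AZC ranges. TMM factors were 1.13 to 1.28 in not5 with vehicle and 0.827 to 0.887 in wild type with AZC of flowcell 2. With these factors undone, STB3 in not5 with vehicle overlaps wild type with AZC of flowcell 2, and TOD6 in not5 stays above it. Whether the overlap in ribosome biogenesis mRNA holds on library totals was not tested. Ribosomal protein mRNA summed to 21.7 ± 1.00% and 13.6 ± 2.15% in wild type of flowcell 1, 26.2 ± 2.67% and 18.5 ± 1.39% in wild type of flowcell 2, 22.04 ± 2.22% and 20.5 ± 3.03% in zuo1, and 9.29 ± 1.17% and 8.79 ± 1.23% in not5. AZC called 0 genes of either list by edgeR in zuo1 and in not5, where an unadjusted p below 0.05 was reached by 7 ribosomal protein genes in zuo1 and by 0 of the other list, and by 0 of either in not5.

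**Figure D4:**
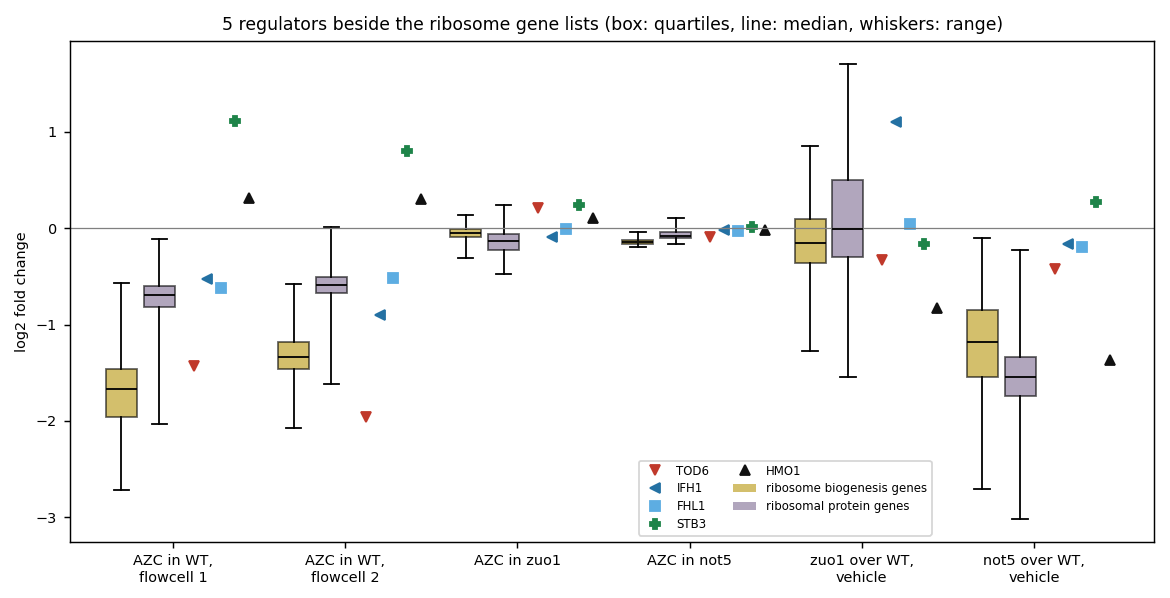
Log2 fold change (y axis) in 6 comparisons (x axis) of the ribosome biogenesis genes and the ribosomal protein genes, drawn as boxes of quartiles with the median and whiskers over the full range, beside 5 regulators as symbols. In wild type with AZC, TOD6 lies just above the ribosome biogenesis box at -1.43 and below it at -1.96, STB3 at 1.11 and 0.80 lies above both lists, and in not5 over wild type with vehicle both list medians (-1.18 and -1.55) lie far below TOD6 at -0.43, which, like IFH1 and FHL1 there and STB3 in zuo1 over wild type, changes sign on library totals.

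With vehicle, the target lists in not5 were low as well, beside 41.2% of all genes called higher and 40.9% lower. Of 60 ribosome biogenesis genes, 57 were lower than in wild type and 0 higher, with a median of -1.18, and on library totals 41 were lower and 2 higher, with a median of -0.66. Of 135 ribosomal protein genes, 134 were lower and 0 higher, with a median of -1.55, and on library totals 128 were lower and 2 higher, with a median of -1.02. The response to AZC differed from that of wild type in all 60 ribosome biogenesis genes in both mutants, with medians of 1.60 in zuo1 and 1.21 in not5, and in 73 and 97 ribosomal protein genes, each of them toward higher values. Of all genes, 23.4% differed toward higher and 26.7% toward lower values in zuo1, and 26.5% and 22.7% in not5. In zuo1 with vehicle the lists were mixed, with 8 ribosome biogenesis genes higher and 25 lower, and 45 ribosomal protein genes higher and 33 lower. Beside them, 30.1% of all genes were higher and 29.1% lower, and the ribosomal protein counts are near those shares. Scaled to library totals the counts of these lists became 18 and 10, and 62 and 23. IFH1 at 1.098 and HMO1 at -0.83 were the members furthest from wild type there. Of the 3 a-cell genes tested, 2 were lower in not5 and 1 in zuo1 with vehicle, as was 1 alpha-cell gene of 3 and of 2 tested, and none was higher. These genes are too few to be set apart from the shares of all genes.

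The signalling genes upstream gave a varied picture. Of 17 PKA pathway genes, 12 rose and 2 fell with AZC in wild type on both flowcells, with medians of 0.49 and 0.47. Beside them, 33.3% of all genes were higher and 31.3% lower on flowcell 1, and 30.2% and 35.2% on flowcell 2. IRA2, the gene of an inhibitor of Ras, rose by 2.68 ± 0.14 on flowcell 1, while RAS1 changed by -1.19 ± 0.06 and TPK3, a subunit gene of PKA, by -0.72 ± 0.06. YAK1, a kinase gene that PKA opposes, rose by 1.54 ± 0.09, but its record overlaps IRC9 and strand was not marked. In zuo1 and in not5 AZC called 0 of these 17 genes by edgeR, with 3 and 0 at an unadjusted p below 0.05.

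Of 16 TORC1 genes, 6 rose and 3 fell in wild type of flowcell 1, and 7 rose and 2 fell on flowcell 2, with medians of 0.11 and 0.10. With 33.3% of all genes higher and 31.3% lower on flowcell 1, and 30.2% and 35.2% on flowcell 2, the share that rose does not set these genes apart. LST8, a core TORC1 subunit gene, rose by 3.85 ± 0.13 and 3.19 ± 0.13 in wild type and by 1.72 ± 0.12 in zuo1 (edgeR adjusted p = 1.51e-08), and in not5 its change was 0.17 ± 0.12. It was the single TORC1 gene called in zuo1, and its divergent upstream neighbour, 501 bases away, is SIS1, the gene of a heat-inducible chaperone. NPR1, a kinase gene, rose by 0.98 ± 0.07 and TIP41, a gene of the Tap42 branch, by 0.94 ± 0.08 on flowcell 1, while the phosphatase gene SIT4 changed by -0.41 ± 0.06, MRS6 by -0.22 ± 0.06 and TCO89 by -0.22 ± 0.07.

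Of 12 genes of the Rpd3L complex, the deacetylase that Tod6, Dot6 and Stb3 recruit, 6 rose and 1 fell on flowcell 1 and 6 rose and 2 fell on flowcell 2, to be read against the same shares of all genes. SIN3, the scaffold gene, changed by 0.68 ± 0.07 on flowcell 1, ASH1 by 0.61 ± 0.07, UME6 by 0.36 ± 0.09 and SAP30 by -0.44 ± 0.11. In zuo1 AZC called ASH1 alone (0.26 ± 0.07, edgeR adjusted p = 0.0457), and in not5 it called 0 of the 12. Of 19 genes listed as partners of the members, at ribosomal protein promoters or elsewhere, 0 rose and 13 fell on flowcell 1. On flowcell 2, 0 rose and 11 fell. Beside them, 33.3% of all genes rose and 31.3% fell on flowcell 1, and 30.2% and 35.2% on flowcell 2. On flowcell 1, UTP22, a subunit gene of the CURI complex that holds Ifh1, changed by -0.92 ± 0.09, GCR2, a coactivator gene, by -0.86 ± 0.06, and RIF1, whose product binds Rap1 at telomeres, by -0.71 ± 0.09.

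The genes most like each member were ranked by Pearson r over the 32 libraries, on log2(CPM + 1) with flowcell means removed, among 5711 protein-coding genes, for the 6 members called on both flowcells. The points share groups and libraries, so r is a description. TOD6 was most like LCP5 (r = 0.963) and RCL1 (0.958), both genes of pre-rRNA processing, and YPL068C (0.952). IFH1 was most like LOC1 (0.962), RPC17 (0.943) and JNM1 (0.941), and FHL1 like MCM10 (0.939), NTO1 (0.933) and RIO1 (0.931). HMO1 was most like GET3 (0.990), CCT8 (0.984) and PAT1 (0.981). STB3 was most like ECM21 (0.983), YHL008C (0.980) and NEO1 (0.979), and SCH9 like YBR238C (0.968), GCN1 (0.967) and PUF4 (0.966). Among the members themselves, FHL1 ran with TOD6 (r = 0.852) and against STB3 (r = -0.859), and TOD6 against STB3 (r = -0.828).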

How the data were processed

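Messenger RNA selected by poly(A) was sequenced in 32 libraries. The values are estimated counts per gene, which the authors deposited unscaled. The submitters' processing notes name Salmon 1.10.2, FastQC 0.12.1 and build R64; how transcripts were indexed and summed, and whether strand was used, is not given in the sources used here. Estimates that were not whole, 79.1% of values, were rounded to the nearest count. Of 6085 records, 1 matched no gene and was left out (at most 0.0179% of a library).

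Genes were kept by filterByExpr, scaled by TMM and tested with edgeR 4.0.16 (robust quasi-likelihood, R 4.3.3) in 1 fit per flowcell, with Benjamini-Hochberg adjustment over all genes at 0.05. The wild-type responses of the flowcells were compared in a fit of their own. Depth, given with the report, limits counting error only. Lengths are coding lengths. Tables were handled in Python 3.11.15, and the fits were tested on simulated data. Alternatives were DESeq2 1.42.0, limma 3.58.1, other scalings and filters, left-out libraries, other sample sets and a replicate block.

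The members and lists were chosen with earlier results of these data known. Of each list, up to 3 called genes with the largest rise and 3 with the largest fall with AZC in wild type of flowcell 1 are named, except 1 that is not reported here. Promoters are RefSeq windows of R64, 250 bases before to 50 after the start codon.

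Equal replicate numbers deviated together between vehicle and AZC in wild type (r over genes 0.238 to 0.465 on flowcell 1 and 0.277 to 0.556 on flowcell 2), in not5 (0.489 to 0.921) and between zuo1 and wild type with vehicle (0.226 to 0.379), so those numbers were taken as pairs. The fits reported have no block, and the paired value stands beside a result where it changes a call.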

Additional observations from a re-analysis of the deposited data

Results flagged for a closer look

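In 4 of the 80 groups of 4 libraries, 1 library of a member stood apart from the other 3 by Dixon's test, and chance gives about 1 in 20. SFP1 in not5 with AZC reached 156 CPM in number 2. FHL1 in wild type of flowcell 1 with AZC reached 74.9 CPM in number 1. TOD6 in the same group was 32.8 CPM in number 4, the lowest. STB3 in zuo1 with vehicle reached 65.0 CPM in number 3.

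The AZC response of 5 members differed between zuo1 and wild type by the edgeR test of the difference, on the log2 scale: FHL1 by 0.61, TOD6 by 1.63, DOT6 by 0.38, STB3 by -0.88 and SCH9 by 0.35. Between not5 and wild type, 5 members differed by the same test: IFH1 by 0.88, FHL1 by 0.48, HMO1 by -0.32, TOD6 by 1.87 and STB3 by -0.78. TOD6, STB3 and FHL1 were in both sets, which use different wild-type libraries. Of all genes, this test called 23.4% higher and 26.7% lower for zuo1, and 26.5% and 22.7% for not5. The member counts are near these shares, so they do not set the members apart.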

How the results depend on the processing

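Over settings other than leaving out 1 library, 1023 values of members stayed on their side of the threshold, 22 became called, 17 lost their call and 8 that were called in either fit turned. Of the 1023, 21 that were called in neither fit changed sign, 10 of them on library totals. All 8 were differences of not5 from wild type scaled to library totals. With vehicle these were IFH1 at 0.35, FHL1 at 0.33, CRF1 at 0.10, TOD6 at 0.10 and DOT6 at 0.24, and with AZC CRF1 at 0.17, DOT6 at 0.31 and STB3 at 0.0089. Relative to the median gene under that scaling they were -0.17, -0.20, -0.43, -0.43 and -0.29, and -0.37, -0.24 and -0.54. Without 1 library in turn, 1061 stayed on their side, 54 of them uncalled values that changed sign, 21 became called, 38 lost their call and 0 called values turned. The members called then numbered 6 to 8 for AZC in wild type of flowcell 1, 6 to 6 on flowcell 2, 0 to 2 in zuo1 and 0 to 0 in not5. Against wild type they numbered 6 to 8 in zuo1 and 8 to 10 in not5 with vehicle, and 8 to 9 and 9 to 10 with AZC. For the differences in response they numbered 3 to 6 in zuo1, 4 to 6 in not5 and 0 to 2 between flowcells.

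The numbers did not pair the samples for AZC in zuo1 (r 0.0700 to 0.634), nor for not5 against wild type or zuo1 against wild type with AZC. With the replicate block, AZC in zuo1 called 1 member, STB3 at 0.23, and 308 genes of all instead of 160 (280 with a block by number alone), and in the zuo1 difference in response IFH1 (0.45) and HMO1 (-0.21) were called. In not5 the block called 0 members and 76 genes of all. Between the wild-type responses of the flowcells, 76 genes were called, 356 by DESeq2, 498 with the block, and 5 to 517 without 1 library. Wild type number 3 and not5 number 4 of flowcell 2, the richest of their groups in ribosomal RNA, were left out with both treatments. This alternative was chosen after seeing the data. Library totals also ended the calls of the DOT6 difference between zuo1 and wild type with AZC and of the zuo1 differences in response of DOT6 (0.32) and SCH9 (0.29). The cause of these shifts was not tested.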
